A study of Mus musculus with 16 samples.

Results

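MALT1-deficient CD4+ T cells that had been given MALT1 isoform A were compared with cells of the same mice that had been given a mock vector, both after stimulation. The comparison used 8 of the 16 arrays of the study, chosen by their titles: 4 of isoform A stimulated cells and 4 of mock stimulated cells, paired by mouse. Per the labels, the T cells came from 4 individual MALT1-deficient mice on a C57BL/6 background, isoform A, isoform B or mock was introduced by retrovirus, and stimulation lasted 2.5 h and used CD3, a part of the T cell receptor complex, together with CD28, a costimulatory receptor. The RNA came from sorted T cells, per the design text. Every group therefore lacked endogenous MALT1 and every group carried a retrovirus. The remaining arrays were of isoform B stimulated cells (4 arrays) and of isoform A cells left unstimulated (4 arrays), each from the same mice. A resting mock sample was not analysed here, so the response of mock cells to stimulation has no baseline of its own. The share of cells that took up the virus and the amount of MALT1 protein that each vector gave are not stated in the sources used here, and sex and age are not given.

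MALT1 is a paracaspase, a protease that also serves as a scaffold. After engagement of the T cell receptor it assembles with BCL10 and other proteins into a signalling complex, which recruits TRAF6 and activates the IKK kinases, so that NF-kB dimers enter the nucleus and induce target genes, among them genes for their own inhibitors. The protease cuts further regulators, including A20, CYLD, RELB and the RNase Regnase-1 that degrades cytokine mRNAs. Isoform A differs from isoform B by a small extra exon that carries a TRAF6 binding motif. The comparison of isoform A with mock asks what MALT1 isoform A adds to the early response of cells that have no MALT1.

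The isoform A arrays detected 10327 to 10641 of 25697 probes, and the mock arrays 10462 to 11012. Precision is limited by having 4 arrays in each group. All 10 measured CD4 T cell markers, among them Cd3d, Cd3e and Cd4, were above background on all 8 arrays, and their summed level was 15.34 to 15.50 on the log2 scale in isoform A cells and 15.31 to 15.43 in mock cells. Of the markers of other cell types on the array, all 8 arrays detected 1 of 12 B and plasma cell genes (Pou2af1), 3 of 16 macrophage, dendritic cell and granulocyte genes (Cst3, Ctss and Fcer1g), 7 of 13 CD8 and cytotoxic genes (among them Cd8b1, Eomes, Nkg7 and Prf1), 2 of 7 erythroid genes and 2 of 9 stromal genes (Vim and Pecam1). None of the 8 arrays detected 4, 10, 4, 3 and 6 members of these lists, among them Cd22, Pax5, Cd14, Itgam, Lyz2, Cd8a, Ncr1, Alas2 and Col1a1. Malt1 was read by 1 probe near background, detected on 1 of 4 isoform A and 2 of 4 mock arrays, with a difference of -0.12 ± 0.10 (adjusted p = 0.474). Whether this probe reads the transgene is not known, and it gives no check of the labels. In RNA from bulk cells, fewer cells of a type and less RNA per cell cannot be told apart.

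Isoform A cells differed from mock cells at 754 of 8480 genes (8.89%), of which 381 were higher (4.49%) and 373 lower (4.4%). A log2 difference of at least 1 was reached by 56 of these genes (0.66%), 37 higher and 19 lower. Differences throughout are isoform A minus mock on the log2 scale of background-corrected intensity, errors after ± are standard errors of the fit (n = 4 mice per group), and a gene was called at a limma adjusted p under 0.05. The median difference of all genes was -0.0051, and the median size of the called differences was 0.48. All 4 mice had the same sign at 721 of the 754 called genes. Per mouse, the sign of the fit was found at 732, 749, 752 and 750 of the 754 genes in mice 1 to 4. Of the called genes, 506 had groups that did not overlap. Over all 8480 genes, the 4 isoform A arrays all lay above the 4 mock arrays at 5.02% of genes and all below them at 5.08%.

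**Figure D1:**
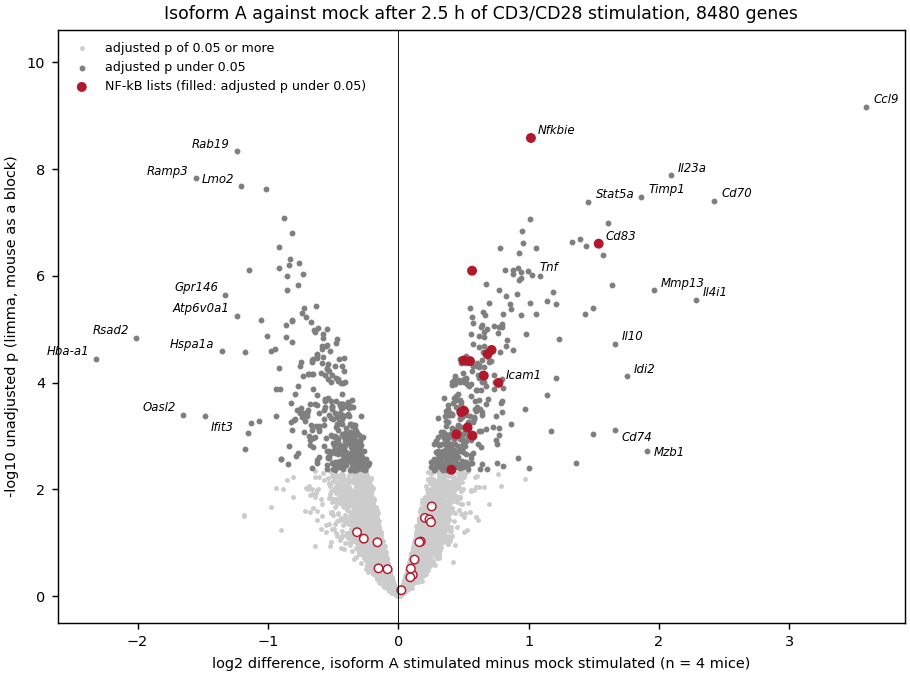
Log2 difference between isoform A stimulated and mock stimulated cells (x axis) against -log10 of the unadjusted limma p (y axis) for the 8480 genes tested, with genes past an adjusted p of 0.05 in dark grey and NF-kB list members in red. The filled NF-kB members, 15 in number, all lie on the higher side, and Ccl9 stands farthest to the right at 3.59.

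The count of calls depended on the arrays used. Without mouse 3, 250 genes passed, without mouse 4, 336, and without mouse 2, 447. Leaving out a single array gave 364 without the isoform A array of mouse 3, 465 without that of mouse 4, and 438 and 436 without the mock arrays of mice 3 and 4. The 8 arrays on their own gave 275 calls, and the fit without the mouse block gave 416. Fitting the 8 arrays alone left fewer arrays for the estimate of the spread. Normalization and the choice of probe were also redone on those arrays, and the part of each change was not tested. The brightest probe reached a raw intensity of 34329 to 38404 on arrays from mice 1 and 2, and 41735 to 43710 on arrays from mice 3 and 4. Within mice 1 and 2, 133 genes passed (82 higher, 51 lower), and within mice 3 and 4, 702 passed (359 higher, 343 lower).

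NF-kB genes were higher with isoform A. Of 31 measured members of the 3 NF-kB lists, 15 were called higher and 0 lower (limma, 19 higher and 0 lower at an unadjusted p under 0.05), beside 4.49% of all genes called higher. Their median difference was 0.26, 26 of 31 differences were above 0, and the groups did not overlap at 13 members, all higher, beside 5.02% of all genes. Per mouse the median over the 31 members was 0.22, 0.42, 0.54 and 0.25 in mice 1 to 4. The count was 8 without mouse 3, 4 within mice 1 and 2, and 9 within mice 3 and 4, and 0 members were called lower in any of these.

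Among the subunits, 3 of 4 measured genes were higher. Rela, which encodes the p65 activating subunit, stood at log2 levels of 12.13, 12.22, 12.32 and 12.18 in isoform A cells of mice 1 to 4, against 11.88, 11.73, 11.68 and 11.56 in mock cells (difference 0.50 ± 0.08, adjusted p = 0.00234). Relb, the subunit of the alternative pathway that MALT1 can cut, was at 9.76, 9.87, 10.04 and 9.95 with isoform A and at 9.37, 9.39, 9.33 and 9.35 with mock (0.55 ± 0.09, adjusted p = 0.00237). For both genes the isoform A values lay above every mock value. Nfkb2, the precursor of p52 and the partner of RELB, was higher by 0.50 ± 0.11 (adjusted p = 0.0101). Rel, the c-Rel subunit, differed by 0.16 ± 0.09 (adjusted p = 0.297).

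Inhibitor and feedback genes gave 5 higher of 12 measured, and all 12 differences were above 0. Nfkbie, which encodes the inhibitor IkB epsilon, had the second lowest p of all genes. It stood at 9.92, 9.97, 10.03 and 10.003 in isoform A cells, against 8.96, 8.85, 8.94 and 9.11 in mock cells (1.02 ± 0.08, 2.02-fold, adjusted p = 1.11e-05). Within each group the 4 mice lay close together (SD 0.05 with isoform A and 0.11 with mock), and the groups were well apart. Tnip1, whose product binds A20, was at 9.52, 9.42, 9.80 and 9.73 with isoform A and at 8.98, 8.84, 9.22 and 9.16 with mock (0.57 ± 0.07, adjusted p = 0.0002). The difference was nearly the same in every mouse. Nfkbib, the IkB beta gene, was higher by 0.45 ± 0.11 (adjusted p = 0.0192) and Zc3h12a, the Regnase-1 gene, by 0.57 ± 0.14 (adjusted p = 0.0198). Tnfaip3, which encodes A20, passed narrowly (0.41 ± 0.12, adjusted p = 0.0489), and its call was lost in 19 of 24 alternatives. Among these were the fit without the mouse block, median scaling, the authors' table and leaving out any 1 mouse or any 1 mock array. Nfkbia, the IkB alpha gene, stood at 11.60, 11.65, 11.32 and 11.09 with isoform A and 11.43, 11.12, 11.02 and 11.08 with mock. Those groups overlapped, and the difference of 0.26 ± 0.10 was not called (adjusted p = 0.122).

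Of 15 measured targets in survival and adhesion, 7 were higher and 0 lower. Cd83, a surface glycoprotein of activated lymphocytes and dendritic cells, had the largest difference of the NF-kB lists. It was at 8.96, 9.36, 9.61 and 9.11 in isoform A cells and at 8.002, 7.93, 7.32 and 7.63 in mock cells (1.54 ± 0.16, 2.9-fold, adjusted p = 0.00011). Every isoform A value exceeded every mock value, and the gap was widest in mouse 3. Icam1, the ligand of the integrin LFA-1, stood at 9.84, 10.04, 10.51 and 9.86 with isoform A, against 9.18, 9.19, 9.41 and 9.39 with mock (0.77 ± 0.14, adjusted p = 0.00425). Ier3, an early stress response gene linked to survival, was at 10.59, 10.46, 10.80 and 10.36 with isoform A and at 9.73, 9.80, 9.88 and 9.95 with mock (0.72 ± 0.11, adjusted p = 0.00175). Neither gene had overlapping groups. Bcl2l1, which encodes the survival factor BCL-XL, was higher by 0.68 ± 0.11 (adjusted p = 0.00195), and its 2 other probes gave 0.64 and 0.67. The pleckstrin gene Plek (0.66 ± 0.12, adjusted p = 0.00354) and the TNF receptor adaptor gene Traf1 (0.48 ± 0.10, adjusted p = 0.0104) were higher as well. Bcl2a1d, a BCL2 relative, was higher by 0.53 ± 0.12 (adjusted p = 0.0158), but near-identical copies of this gene could share its signal. The 8 members not called included Gadd45b (0.17 ± 0.10), Birc2 (-0.08 ± 0.08) and Tnfrsf9, the 4-1BB receptor gene (-0.26 ± 0.14).

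The promoters of the 4 called NF-kB genes with the largest differences that hold a match to the kappa-B consensus are shown because NF-kB dimers are known to bind this motif. They come from RefSeq (GRCm38.p6), run from 250 bases before to 50 after the annotated start on the gene's own strand, and capitals mark the match.
Nfkbie, chr17:45555450-45555749, plus strand: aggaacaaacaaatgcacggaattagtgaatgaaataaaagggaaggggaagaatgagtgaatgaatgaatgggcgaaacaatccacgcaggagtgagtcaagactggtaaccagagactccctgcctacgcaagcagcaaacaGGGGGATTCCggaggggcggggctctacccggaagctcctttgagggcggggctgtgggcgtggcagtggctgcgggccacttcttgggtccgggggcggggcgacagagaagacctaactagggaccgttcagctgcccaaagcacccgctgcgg
Ier3, chr17:35821463-35821762, plus strand: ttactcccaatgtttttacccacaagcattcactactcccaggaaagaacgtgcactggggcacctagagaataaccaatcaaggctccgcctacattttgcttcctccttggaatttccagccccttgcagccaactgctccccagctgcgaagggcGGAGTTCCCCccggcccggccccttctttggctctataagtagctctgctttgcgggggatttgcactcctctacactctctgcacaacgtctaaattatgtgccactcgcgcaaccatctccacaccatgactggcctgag
Bcl2l1, chr2:152830668-152830967, minus strand: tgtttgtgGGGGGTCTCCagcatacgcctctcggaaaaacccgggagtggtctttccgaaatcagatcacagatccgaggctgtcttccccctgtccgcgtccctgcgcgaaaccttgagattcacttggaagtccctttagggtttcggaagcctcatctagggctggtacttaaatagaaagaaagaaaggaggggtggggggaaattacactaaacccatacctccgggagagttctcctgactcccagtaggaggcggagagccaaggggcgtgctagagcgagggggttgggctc
Tnip1, chr11:54962891-54963190, minus strand: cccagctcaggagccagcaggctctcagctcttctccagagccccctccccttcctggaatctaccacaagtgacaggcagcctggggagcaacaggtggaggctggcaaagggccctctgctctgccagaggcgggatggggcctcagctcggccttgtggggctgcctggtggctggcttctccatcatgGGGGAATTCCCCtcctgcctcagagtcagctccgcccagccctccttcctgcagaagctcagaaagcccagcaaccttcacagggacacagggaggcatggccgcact

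The match began at position -106 relative to the start in Nfkbie, -92 in Ier3, -242 in Bcl2l1 (the only match among the window shown of its 3 annotated starts) and -58 in Tnip1, where 3 overlapping matches share the capitals. The consensus was searched on both strands. At least 1 match was found at 15 of the 27 measured NF-kB genes with a promoter in the table (55.6%), beside 853 of 6961 tested genes (12.3%). Among NF-kB genes it was found at 6 of 13 called higher (46.2%) and 9 of 14 not called (64.3%), and the difference between these shares was not tested. A gene with several annotated starts was counted if any of its windows held a match. The NF-kB lists were drawn up from genes known for NF-kB, so their contrast with all tested genes does not bear on isoform A. A match is a description of the letters and not a bound site.

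Of 16 measured genes of the MALT1 signalling complex and the IKK kinases, 2 were higher and 2 lower, beside 4.49% and 4.4% of all genes, and their median difference was -0.0066. Map3k14, the NIK kinase of the alternative NF-kB pathway, stood at 8.47, 8.23, 8.52 and 8.40 with isoform A and at 7.91, 7.88, 7.89 and 8.17 with mock (0.44 ± 0.10, adjusted p = 0.0167), and Rnf31, the catalytic subunit HOIP of the linear ubiquitin ligase, was higher by 0.41 ± 0.10 (adjusted p = 0.0193). Tab1, an adaptor of the TAK1 kinase (-0.42 ± 0.12, adjusted p = 0.04), and Prkcq, the kinase PKC theta of T cell receptor signalling (-0.27 ± 0.08, adjusted p = 0.0464), were lower. The calls of Rnf31, Tab1 and Prkcq were lost without the mouse block. The count of 4 was 0 without the mock array of mouse 2, 1 without any 1 of the 4 mice, and 1 without the isoform A array of mouse 3 or the mock array of mouse 3 or 4. It was 2 without the isoform A array of mouse 1, 2 or 4. Bcl10 differed by 0.18 ± 0.07 (adjusted p = 0.145) and Ikbkb by -0.07 ± 0.08.

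Of 10 mRNAs in a list of proteins cut by MALT1 (for Map3k14, by the oncogenic fusion of MALT1 with cIAP2), 4 were higher and 0 lower (limma, 6 and 0 at an unadjusted p under 0.05). These were Zc3h12a, Relb, Map3k14 and Tnfaip3, each of which another list also holds. The count was 1 without mouse 3 or either array of mouse 3, and 2 without mouse 1, mouse 2, mouse 4, the isoform A array of mouse 4 or the mock array of mouse 2 or of mouse 4. Of 10 mRNAs that Regnase-1 and Roquin degrade, Tnf, Zc3h12a and the transcription factor gene Irf4 (0.55 ± 0.13, adjusted p = 0.0188) were higher, and Ctla4 was at 0.61 ± 0.26 (adjusted p = 0.169). This count of 3 was 1 without mouse 2 or without the mock array of mouse 4. Of 9 mRNA decay factors, Zc3h12a was higher and Zfp36, which encodes tristetraprolin, a destabiliser of cytokine mRNAs, was lower. The counts of these lists stand beside 4.49% of all genes called higher and 4.4% lower. Zfp36 stood at 10.69, 10.59, 10.31 and 10.74 with isoform A and at 11.21, 11.49, 11.05 and 11.28 with mock (-0.67 ± 0.10, adjusted p = 0.000797). The groups did not overlap.

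**Figure D2:**
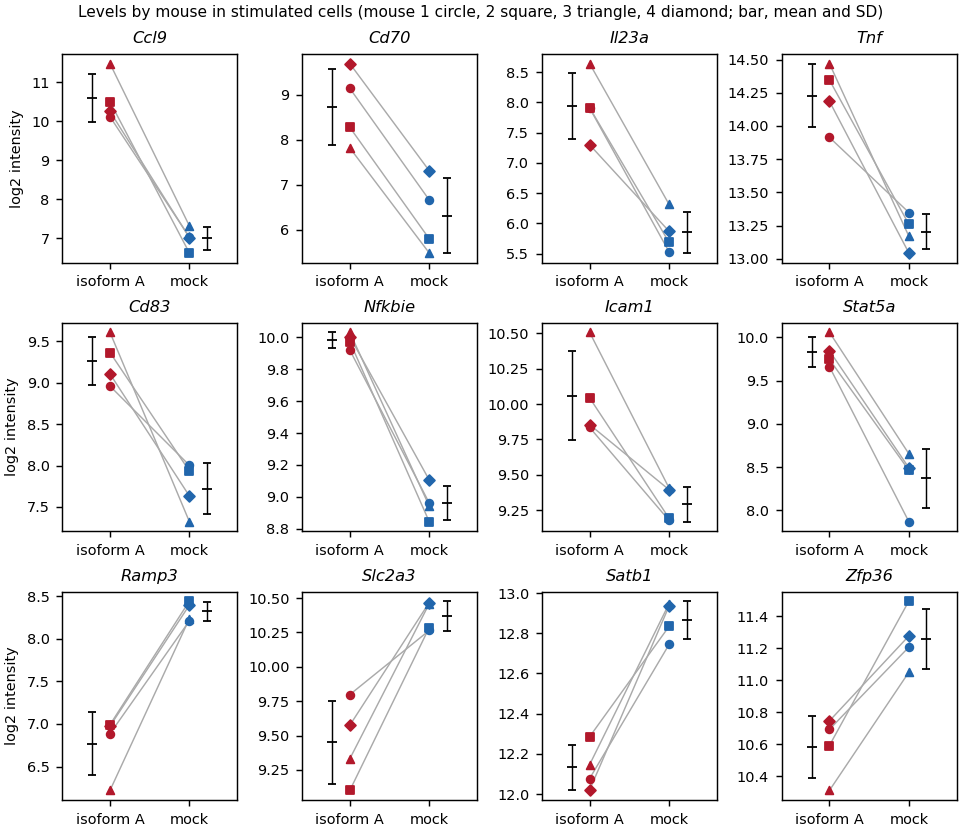
Log2 intensity (y axes, which differ by panel and do not start at 0) of 12 called genes in isoform A stimulated (left, red) and mock stimulated cells (right, blue), with lines joining the arrays of a mouse and bars for mean and SD (n = 4). The first 8 genes are higher and the last 4 lower with isoform A in all 4 mice, and no panel has overlapping groups.

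Ligands of the TNF superfamily gave 6 higher and 0 lower of 12 measured, beside 4.49% of all genes called higher. Cd70, the ligand of the costimulatory receptor CD27, stood at 9.14, 8.28, 7.82 and 9.70 in isoform A cells, against 6.66, 5.80, 5.48 and 7.31 in mock cells (2.42 ± 0.22, 5.36-fold, adjusted p = 3.52e-05). Its level differed widely between mice (SD 0.84 and 0.83), while the difference between the groups was 2.34 to 2.48 in every mouse. Tnf was at 13.91, 14.35, 14.47 and 14.19 with isoform A and at 13.35, 13.26, 13.17 and 13.04 with mock (1.02 ± 0.12, 2.03-fold, adjusted p = 0.000209). Tnfsf4, the OX40 ligand gene (0.94 ± 0.13, adjusted p = 0.000638), and Cd40lg, the CD40 ligand through which CD4 T cells help B cells (0.76 ± 0.11, adjusted p = 0.00105), were higher without overlap. Tnfsf9, the 4-1BB ligand gene, and Tnfsf14, the LIGHT gene, rose less (0.39 ± 0.09, adjusted p = 0.0203, and 0.31 ± 0.08, adjusted p = 0.0367). Fasl (-0.25 ± 0.17) and Ltb (-0.02 ± 0.08) were not called.

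Chemokines gave 4 higher and 1 lower of 10 measured, beside 4.49% and 4.4% of all genes. Ccl9, a CC chemokine of the MIP-1 family known in mouse, had the largest difference and the lowest p of all genes tested. It stood at 10.12, 10.50, 11.48 and 10.25 in isoform A cells and at 7.03, 6.63, 7.32 and 7.02 in mock cells (3.59 ± 0.24, 12.03-fold, adjusted p = 5.8e-06). Ccl5, the RANTES gene, was at 12.11, 11.90, 12.72 and 11.97 with isoform A and at 10.96, 10.56, 11.55 and 10.87 with mock (1.19 ± 0.15, adjusted p = 0.000345). In both genes mouse 3 was highest in both groups, and the groups did not overlap. Cxcl9, an interferon gamma-induced CXCR3 ligand, was higher by 1.06 ± 0.15 (adjusted p = 0.000638). Cxcl2, a neutrophil chemoattractant, was detected on 4 of 4 isoform A and 0 of 4 mock arrays and was at least 2.04-fold higher (adjusted p = 0.00011). A bound of this kind sets the isoform A mean against, per mock array, the lowest signal among detected probes or the probe's own, whichever is higher. Cxcl10, another CXCR3 ligand, was lower (-0.90 ± 0.25, adjusted p = 0.0373) and was detected on 2 of 4 isoform A arrays. Ccl3 and Ccl4, the MIP-1 alpha and beta genes, differed by 0.15 ± 0.23 and -0.06 ± 0.18, with adjusted p of 0.747 and 0.872.

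Of 19 measured T cell cytokines, 10 were higher and 1 lower, beside 4.49% and 4.4% of all genes, with a median difference of 0.60. Il23a, which encodes the p19 subunit of interleukin 23, stood at 7.91, 7.91, 8.64 and 7.30 with isoform A, against 5.53, 5.69, 6.32 and 5.87 with mock (2.09 ± 0.18, 4.25-fold, adjusted p = 2.51e-05). Il10, an anti-inflammatory cytokine gene, was at 9.32, 10.23, 10.95 and 9.56 with isoform A and at 7.78, 8.12, 9.20 and 8.32 with mock (1.66 ± 0.26, 3.16-fold, adjusted p = 0.00145). Both genes were higher in all 4 mice with no overlap. Both type 17 cytokines were higher: Il17f by 1.497 ± 0.20 (adjusted p = 0.000551) and Il17a by 1.14 ± 0.22 (adjusted p = 0.00663). Il21, a cytokine of helper cells for B cells, was higher by 1.17 ± 0.27 (adjusted p = 0.0175). Among type 2 cytokines, Il13 was higher by 0.82 ± 0.11 (adjusted p = 0.00038) and Il4 differed by 0.17 ± 0.10 (adjusted p = 0.297). Il5 stood at 6.48, 8.54, 4.96 and 5.76 with isoform A and at 4.84, 6.24, 4.60 and 4.62 with mock. Its groups overlapped, the spread between mice was wide, and its call (1.36 ± 0.38, adjusted p = 0.0419) was lost without the mouse block (adjusted p = 0.325). Il1a was detected on 4 isoform A and 0 mock arrays and was at least 1.56-fold higher (adjusted p = 0.00048). As for Cxcl2, its isoform A arrays alone were enough to pass the filter, and the count of 10 includes it. Csf2, the GM-CSF gene (0.69 ± 0.14, adjusted p = 0.0074), and Tgfb1 (0.45 ± 0.09, adjusted p = 0.00635) were higher too. Osm, the oncostatin M gene, was lower (-0.52 ± 0.14, adjusted p = 0.0326). Ifng (0.31 ± 0.23, adjusted p = 0.444) and Il3 (0.11 ± 0.10, adjusted p = 0.542) did not pass. Il2 was not tested here.

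Among 27 activation, costimulatory and checkpoint receptors 5 were higher and 2 lower, beside 4.49% and 4.4% of all genes. Lag3, an inhibitory receptor for MHC class II, stood at 7.93, 7.65, 8.43 and 8.24 with isoform A and at 7.12, 6.87, 7.62 and 7.14 with mock (0.88 ± 0.14, adjusted p = 0.00175). The groups lay close together but did not overlap. Crtam, a nectin-like adhesion receptor of activated T cells, was higher by 0.63 ± 0.09 (adjusted p = 0.000898), and Tnfrsf25, the receptor of TL1A, by 0.49 ± 0.14 (adjusted p = 0.0414). The adhesion receptor gene Cd44 (0.45 ± 0.13, adjusted p = 0.0445) and Pdcd1lg2, the PD-L2 gene (0.40 ± 0.12, adjusted p = 0.0484), were higher. Cd27, the receptor of CD70, was lower (-0.34 ± 0.10, adjusted p = 0.0414), as was Cd28 (-0.39 ± 0.11, adjusted p = 0.0346). Another 4 probes of Cd44 gave 0.02 to 0.22. Of the 7 calls, 3 to 5 passed whichever mouse or array was left out, and 3 without the mouse block. The early activation markers Cd69 (-0.20 ± 0.09, adjusted p = 0.158) and Il2ra (0.15 ± 0.10, adjusted p = 0.41) were not called.

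Some cytokine signalling genes were called, beside 4.49% of all genes called higher and 4.4% lower. Of 19 cytokine receptors 3 were higher and 0 lower: Il1r2, the decoy receptor of interleukin 1, by 1.06 ± 0.11 (adjusted p = 0.00011), Il6st, the shared gp130 subunit, by 0.57 ± 0.15 (adjusted p = 0.0316), and Il18rap by 0.50 ± 0.09 (adjusted p = 0.00335). The Il6st difference was -0.087 in mouse 1, and its call was lost in 12 of 24 alternatives. Of 20 JAK-STAT genes 5 were higher and 1 lower, beside 4.49% and 4.4% of all genes. Stat5a, a transcription factor downstream of interleukin 2, stood at 9.66, 9.74, 10.06 and 9.85 with isoform A, against 7.87, 8.46, 8.65 and 8.49 with mock (1.46 ± 0.13, 2.75-fold, adjusted p = 3.52e-05). The groups did not overlap, and another Stat5a probe gave 0.96. Pim1, a serine kinase gene induced by STAT5, was higher by 0.97 ± 0.20 (adjusted p = 0.00948), with 0.07 from a dimmer probe. The kinase genes Tyk2 (0.44 ± 0.09, adjusted p = 0.00686) and Jak3 (0.53 ± 0.15, adjusted p = 0.0474) were higher, and the Jak3 call was lost without the mouse block. Of the SOCS feedback inhibitors Socs2 was higher (0.28 ± 0.08) and Socs5 lower (-0.30 ± 0.09), with adjusted p of 0.0408 and 0.0473. The JAK-STAT count of 6 was 2 without mouse 2, 3 or 4, 3 without mouse 1, 3 without the isoform A array of mouse 3 or the mock array of mouse 3 or 4, and 3 without the mouse block.

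Large rises were also found in genes for enzymes and matrix proteins. Il4i1, a secreted amino acid oxidase, was at 8.15, 7.79, 8.52 and 7.06 with isoform A and at 5.79, 5.92, 5.02 and 5.67 with mock (2.28 ± 0.30, 4.86-fold, adjusted p = 0.000446). Mmp13, a collagenase gene, stood at 7.45, 9.09, 9.21 and 7.36 with isoform A, against 6.16, 6.55, 6.46 and 6.11 with mock (1.96 ± 0.25, adjusted p = 0.000325). By mouse the Mmp13 difference was 1.29, 2.54, 2.75 and 1.26, and a dimmer probe gave 0.31. Timp1, which encodes an inhibitor of such proteases, was at 6.49, 6.88, 6.76 and 6.97 with isoform A and at 4.97, 5.10, 4.87 and 4.71 with mock, where it was detected on 2 of 4 arrays (1.86 ± 0.17, adjusted p = 3.52e-05). Its other probe gave 2.08. The 7 other measured matrix protease and inhibitor genes were not called. Idi2, an isopentenyl diphosphate isomerase, was higher by 1.75 ± 0.32 (adjusted p = 0.00362), with 0.86 from another probe. Cdk5r1, the p35 activator of the kinase CDK5, was at 9.49, 10.15, 10.15 and 9.37 with isoform A and at 8.07, 8.03, 8.13 and 8.51 with mock (1.61 ± 0.16, adjusted p = 6.64e-05).

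Of the early transcription factors of T cell activation, 13 AP-1 genes gave 0 higher and 2 lower (limma, 1 and 3 at an unadjusted p under 0.05), beside 4.49% and 4.4% of all genes. Fos stood at 9.89, 10.24, 9.81 and 10.16 with isoform A and at 10.41, 10.73, 10.72 and 10.52 with mock (-0.57 ± 0.13, adjusted p = 0.0146). Every Fos value with isoform A lay below every mock value. Jund was lower (-0.51 ± 0.11, adjusted p = 0.0095), and Junb, Jun, Fosb and Batf, between 0.08 and 0.27, were not called. Of 14 EGR, NR4A and other early genes, Myc was higher (0.34 ± 0.08, adjusted p = 0.0181), while Egr1, Egr2 and Egr3 differed by -0.10 ± 0.16, 0.0033 ± 0.14 and 0.14 ± 0.10. Among 10 NFAT and calcineurin genes, Rcan1, a calcineurin regulator that NFAT induces, was higher by 1.01 ± 0.10 (adjusted p = 6.2e-05). Nfat5 was higher (0.41 ± 0.09) and Rcan3 lower (-0.38 ± 0.10), with adjusted p of 0.0109 and 0.0383. Another Rcan3 probe gave -0.13. Of 15 MAPK feedback genes, Dusp16, a JNK phosphatase gene (0.66 ± 0.10, adjusted p = 0.00104), and Map3k8, the kinase TPL2 (0.62 ± 0.09, adjusted p = 0.00116), were higher and 0 lower.

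Of 22 T cell receptor and proximal signalling genes, 0 were higher and 5 lower (limma, 0 and 9 at an unadjusted p under 0.05), beside 4.4% of all genes called lower. Ptpn6, the phosphatase SHP-1 that dampens receptor signalling, was at 8.64, 8.49, 8.47 and 8.41 with isoform A and at 8.83, 9.27, 9.50 and 9.17 with mock (-0.69 ± 0.12, adjusted p = 0.00348). The inhibitory kinase gene Csk (-0.32 ± 0.08, adjusted p = 0.0265), the suppressor gene Ubash3a (-0.32 ± 0.10, adjusted p = 0.0498) and the adaptor gene Lat (-0.24 ± 0.07, adjusted p = 0.0437) were lower. The calls of Csk and Ubash3a were lost in 13 and 22 of 24 alternatives. Ptprc, the CD45 gene, was lower by -0.75 ± 0.16 (adjusted p = 0.00923) on its brightest probe and at 0.17 on another, so its direction is not settled. The count of 5 was 1 without mouse 3, 2 without mouse 2, without mouse 4 or without the mouse block, 2 without the isoform A array of mouse 2 or 3 or the mock array of mouse 3 or 4, and 3 without the isoform A array of mouse 4 or the mock array of mouse 2.

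Of 17 quiescence, homing and naive identity genes 1 was higher and 2 lower, beside 4.49% and 4.4% of all genes. Satb1, a chromatin organiser of T cells, stood at 12.08, 12.29, 12.15 and 12.02 with isoform A and at 12.74, 12.83, 12.95 and 12.94 with mock (-0.73 ± 0.09, adjusted p = 0.000209). Tsc22d3, the glucocorticoid-induced GILZ gene, was lower by -0.81 ± 0.13 (adjusted p = 0.00142), with -0.13 from a dimmer probe. The growth regulator gene Slfn2 was higher by 0.55 ± 0.15 (adjusted p = 0.0367). Among 14 T helper lineage factors, Zbtb32 (0.65 ± 0.11, adjusted p = 0.00183), Rora, a factor of type 17 cells (0.63 ± 0.16, adjusted p = 0.027), and Irf4 were higher. Bcl6, the factor of follicular helper cells, was at 10.49, 10.54, 10.34 and 10.90 with isoform A and at 11.15, 11.49, 11.06 and 11.39 with mock (-0.70 ± 0.15, adjusted p = 0.0113). Nfil3 was lower by -0.56 ± 0.11 (adjusted p = 0.0076), and Tbx21 (-0.02 ± 0.09) and Gata3 (0.09 ± 0.08) were not called. In the BCL2 family, 3 of 14 members were higher (Bcl2l1, Bid and the TRAIL receptor gene Tnfrsf10b), beside 4.49% of all genes. Bcl2 was lower (-0.36 ± 0.09, adjusted p = 0.0248), beside 4.4% of all genes, and its other probes gave -0.29 to -0.02. The calls of Bid, Tnfrsf10b and Bcl2 were lost in 19, 16 and 8 of 24 alternatives. With a mouse or an array left out, 1 to 3 members of this list were called. The 4 probes of Tnfrsf10b disagreed, at 0.40, 0.34, 0.28 and -0.55.

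**Figure D3:**
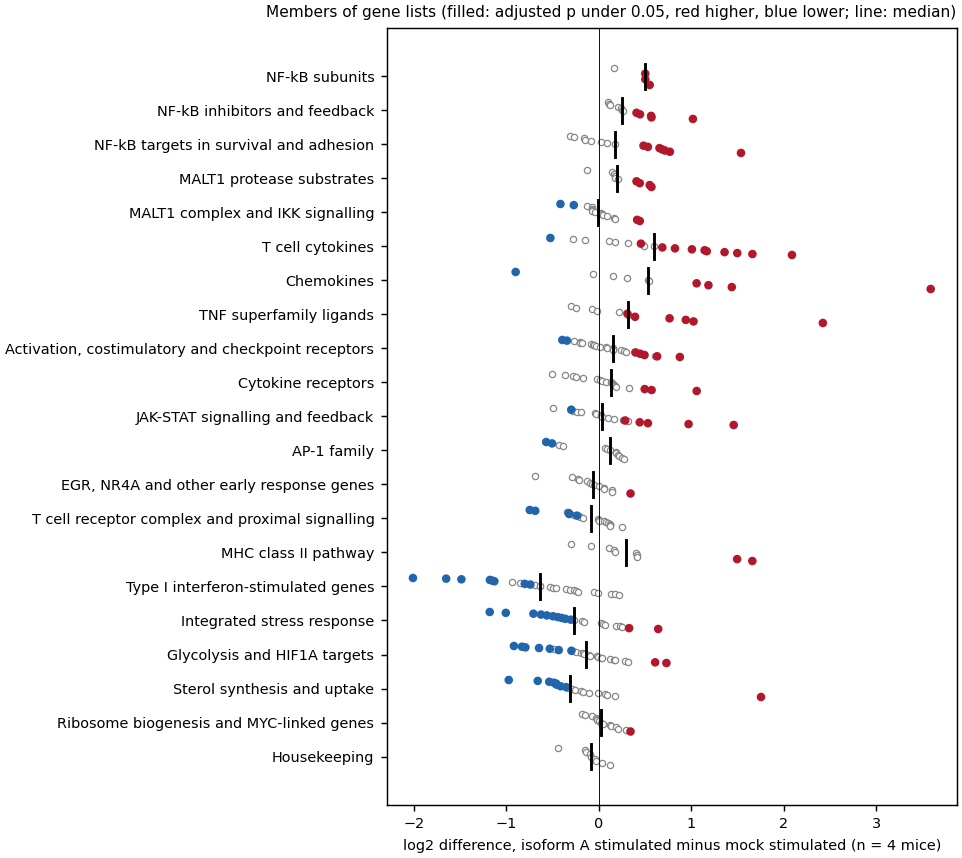
Log2 difference of each measured member (points) of 21 gene lists between isoform A stimulated and mock stimulated cells (x axis), with called members filled, red where higher and blue where lower, and a line at the list's median. NF-kB, cytokine, chemokine and TNF ligand members extend to the right, and type I interferon, integrated stress response, glycolysis and sterol members extend to the left.

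Type I interferon-stimulated genes were lower with isoform A. Of 27 measured members 8 were called lower and 0 higher (limma, 19 and 0 at an unadjusted p under 0.05), beside 4.4% of all genes, and the median difference was -0.64. The called genes were Rsad2, Oasl2, Ifit3, Isg15, Cmpk2, Dhx58, Eif2ak2 and Samd9l, which encode antiviral effectors and RNA sensors. Rsad2, the viperin gene, stood at 6.33, 6.596, 7.10 and 6.08 with isoform A, against 7.52, 8.40, 10.39 and 7.84 with mock (-2.01 ± 0.31, 4.03-fold lower, adjusted p = 0.00122). Isg15, a ubiquitin-like modifier, was at 8.90, 9.23, 9.09 and 8.94 with isoform A and at 9.57, 10.20, 11.38 and 9.73 with mock (-1.18 ± 0.30, adjusted p = 0.0286). In both genes the isoform A arrays lay closer together than the mock arrays (SD 0.44 and 1.29 for Rsad2, 0.15 and 0.82 for Isg15). The mock array of mouse 3 stood above the other mock arrays in both, and at Rsad2 mouse 3 was also highest with isoform A.

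This spread belonged to the whole list. The median level of the 27 members was 6.33, 6.59, 6.80 and 6.71 in isoform A cells of mice 1 to 4, against 6.77, 7.37, 8.79 and 7.04 in mock cells. The median difference was therefore -0.26, -0.53, -1.36 and -0.32 by mouse, below 0 in all 4 and farthest from 0 in mouse 3. The count of 8 calls was 4 without mouse 3, 2 without mouse 2, 13 without mouse 1 and 14 without the mock array of mouse 1. It was 7 without the mock array of mouse 3 and 1 without the isoform A array of mouse 3. Without the mouse block 5 members were lower, within mice 1 and 2 alone 5, and within mice 3 and 4 alone 6 were lower and 1 higher. Rsad2 passed under each of the 24 alternatives other than the pairs of mice, with differences between -2.31 and -1.32.

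**Figure D4:**
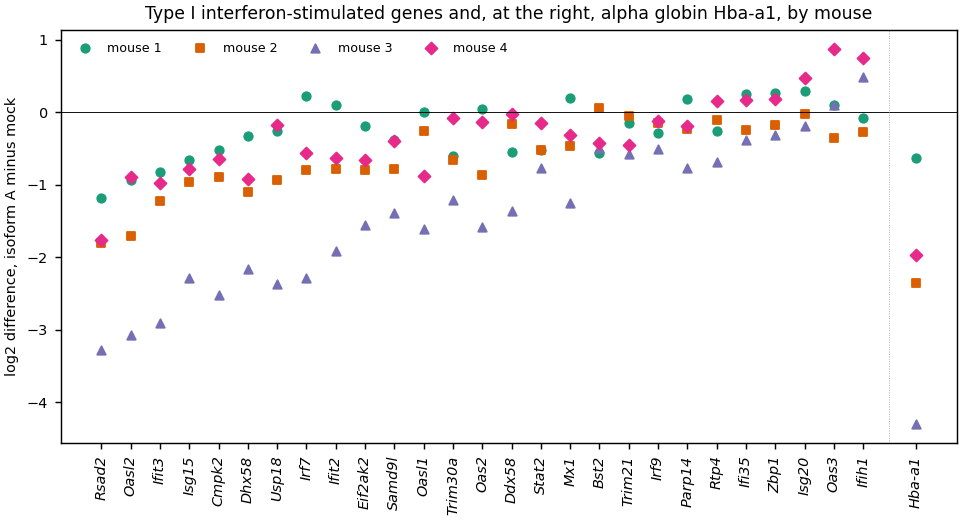
Log2 difference between isoform A stimulated and mock stimulated cells (y axis) in each of the 4 mice (symbols) for the 27 type I interferon-stimulated genes, ordered by their fitted difference, and for Hba-a1 at the right. Mouse 3 (triangles) lies lowest at most genes, at -3.29 for Rsad2 and -4.30 for Hba-a1.

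Of 10 measured interferon gamma-induced GTPases and factors 2 were higher and 1 lower, beside 4.49% and 4.4% of all genes. The higher ones were Gbp3 (0.56 ± 0.10, adjusted p = 0.00441) and Gbp2 (0.46 ± 0.12, adjusted p = 0.0304), both guanylate-binding proteins of cell-autonomous defence. Gbp3 stood at 12.29, 12.31, 12.83 and 12.58 with isoform A and at 12.06, 11.81, 12.06 and 11.85 with mock, without overlap. Tgtp1, a GTPase of another family, was lower (-0.46 ± 0.13, adjusted p = 0.0454), a call lost in 17 of 24 alternatives, and Irf1, Igtp and Irgm1, between -0.16 and 0.06, were not called. The Gbp2 call was lost in 11 of 24 alternatives, and the count of 3 was 0 without mouse 3 and 1 without the isoform A array of mouse 3 or the mock array of mouse 2 or 4.

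Several called genes are known from other cell types. Hba-a1, an alpha globin gene of erythroid cells, had the lowest difference of all genes. It stood at 5.66, 6.36, 5.56 and 5.77 with isoform A, against 6.29, 8.72, 9.86 and 7.74 with mock (-2.32 ± 0.39, 4.99-fold lower, adjusted p = 0.00228). It was lower in every mouse, the groups overlapped, and the mock arrays differed widely (SD 1.51, against 0.36 with isoform A). The erythroid list held 1 further measured gene, Car2, a carbonic anhydrase gene (-0.91 ± 0.16, adjusted p = 0.00278), and the summed level of both was 5.69 to 6.75 with isoform A and 7.30 to 9.97 with mock. The erythroid markers Alas2, Slc4a1 and Hbb-b2 were detected on 0 of these 8 arrays. A near-identical alpha globin copy could share the Hba-a1 signal, and the part of erythroid RNA in the other results was not tested.

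MHC class II genes gave 2 higher and 0 lower of 10 measured, beside 4.49% of all genes called higher. Cd74, the invariant chain of MHC class II, stood at 8.69, 8.97, 9.49 and 9.53 with isoform A, against 7.50, 7.63, 7.72 and 7.19 with mock (1.66 ± 0.39, adjusted p = 0.0172), and its other probe gave 1.57. H2-Ab1, a class II beta chain, was at 6.29, 6.31, 7.20 and 7.33 with isoform A and at 5.31, 5.54, 5.36 and 4.95 with mock (1.495 ± 0.36, adjusted p = 0.0191). Neither gene had overlapping groups, but both calls were lost without mouse 3, without the isoform A array of mouse 3 or of mouse 4 and without the mock array of mouse 4. Mzb1, a chaperone of B and plasma cells, was at 6.62, 6.87, 6.33 and 7.20 with isoform A and at 5.33, 4.64, 4.57 and 4.86 with mock, where 1 of 4 arrays detected it (1.91 ± 0.50, adjusted p = 0.03). The Mzb1 call was lost in 14 of 24 alternatives, among them no background correction (0.703), an offset of 50, leaving out mouse 2 or 3, the isoform A array of mouse 2, 3 or 4, or any 1 mock array. Of the 5 other measured B cell markers 0 were called (limma, 1 lower at an unadjusted p under 0.05), Cd79b, Cd22, Cr2 and Pax5 were detected on 0 of these 8 arrays, Pou2af1 was detected on all 8, Ms4a1 on 2 isoform A and 2 mock arrays, Jchain on 1 and 2, and Fcer2a on 1 and 1. Cd79a was detected on 1 isoform A array, and Blk and Ebf1 on 1 mock array each. The summed level of the list was 11.94 to 12.33 with isoform A and 12.14 to 12.40 with mock. In resting isoform A cells of the same mice it was 7.65 to 8.01. The sum thus differed with stimulation and does not measure B cell content. Of 5 macrophage, dendritic cell and granulocyte markers 0 were called (limma, 1 higher at an unadjusted p under 0.05), with Cst3 at 0.25 ± 0.11, and of 9 CD8 and cytotoxic markers Ctsw was higher (0.29 ± 0.07, adjusted p = 0.0229). Of 2 stromal markers 0 were called (limma, also 0 at an unadjusted p under 0.05). Their part in the result was not tested.

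Of 21 measured genes of the integrated stress response, 10 were lower and 2 higher, beside 4.4% and 4.49% of all genes. Their median difference was -0.27, and 8 of the 21 differences were above 0. Ddit3, which encodes the stress factor CHOP, stood at 8.47, 8.17, 8.76 and 8.10 with isoform A and at 8.93, 9.17, 9.78 and 9.64 with mock (-1.01 ± 0.15, 2.01-fold lower, adjusted p = 0.00117). Slc7a3, a cationic amino acid transporter gene, was at 5.77, 5.42, 6.44 and 5.84 with isoform A and at 6.65, 6.68, 7.85 and 7.02 with mock (-1.18 ± 0.19, adjusted p = 0.00183). Both genes were lower in all 4 mice without overlap. Ddit4, an inhibitor of mTORC1 signalling (-0.71 ± 0.10, adjusted p = 0.000686), the pseudokinase gene Trib3 (-0.63 ± 0.10, adjusted p = 0.00222) and Cebpb (-0.56 ± 0.12, adjusted p = 0.00919) were lower. So were Atf5, Stc2, the asparagine synthetase gene Asns, the amino acid transporter gene Slc7a5 and the serine synthesis gene Psat1, between -0.50 and -0.30. Sesn2 (0.64 ± 0.14, adjusted p = 0.0111) and Ppp1r15a, the GADD34 gene (0.33 ± 0.08, adjusted p = 0.0185), were higher, and the central factor gene Atf4 differed by 0.06 ± 0.09. The 12 calls became 5 without mouse 3, 5 without mouse 4, 6 without the isoform A or the mock array of mouse 3 and 7 without the isoform A array of mouse 4. Without the mouse block 6 passed.

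Genes of glycolysis and of the hypoxia factor HIF-1 were lower at 7 and higher at 2 of 26 measured members, beside 4.4% and 4.49% of all genes. Slc2a3, the glucose transporter GLUT3, stood at 9.80, 9.10, 9.33 and 9.57 with isoform A, against 10.27, 10.29, 10.46 and 10.47 with mock (-0.92 ± 0.11, adjusted p = 0.0002). Vegfa, a classical HIF-1 target, was at 7.09, 7.29, 7.27 and 6.88 with isoform A and at 7.70, 8.04, 8.21 and 7.91 with mock (-0.83 ± 0.09, adjusted p = 0.000161). Hif1a itself was lower by -0.79 ± 0.15 (adjusted p = 0.00625). The pyruvate dehydrogenase kinase gene Pdk1 (-0.65 ± 0.10, adjusted p = 0.00099), the HIF prolyl hydroxylase gene Egln1 (-0.53 ± 0.09), Pfkl (-0.43 ± 0.07) and Slc2a1, the GLUT1 gene (-0.30 ± 0.07), were lower as well. Egln3, a relative of Egln1, was higher by 0.73 ± 0.13 (adjusted p = 0.00352), and Hk1 by 0.61 ± 0.15 (adjusted p = 0.0248). Dimmer probes of Vegfa and Egln3 gave -0.28 and 0.18. Egln1 was detected on 2 of 4 isoform A arrays. Core enzymes of the pathway, Aldoa, Ldha, Gapdh and Pkm, lay between -0.16 and 0.17 and were not called.

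Genes of sterol synthesis and uptake were lower at 8 and higher at 1 of 20 measured members, beside 4.4% and 4.49% of all genes, with a median of -0.31. The desaturase gene Scd2 was at 5.96, 5.81, 5.97 and 6.05 with isoform A and at 6.84, 7.17, 7.11 and 6.57 with mock (-0.97 ± 0.16, adjusted p = 0.00181). Mvd (-0.66 ± 0.15, adjusted p = 0.017) and Msmo1 (-0.54 ± 0.10, adjusted p = 0.00393), enzymes of the mevalonate and sterol pathways, were lower, and so were Nsdhl, Fdps, Insig1, Stard4 and Hmgcs1, between -0.49 and -0.35. Idi2, described above, was the member that rose, while Idi1 differed by -0.01 ± 0.17 and Sqle by -0.11 ± 0.10. Of the 9 calls, 5 passed without mouse 2, 3 without mouse 3, 4 without the isoform A array of mouse 3, 5 without that of mouse 4, 4 without the mock array of mouse 3 and 3 without the mock array of mouse 4.

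Among further large falls, Ramp3, a partner of calcitonin-family receptors, stood at 6.88, 6.99, 6.22 and 6.97 with isoform A, against 8.21, 8.44, 8.24 and 8.39 with mock (-1.55 ± 0.13, 2.94-fold lower, adjusted p = 2.51e-05). Its other probe gave -1.59. Lmo2, a transcription cofactor gene of blood development, was at 5.24, 5.78, 5.56 and 5.43 with isoform A and at 6.35, 7.12, 7.03 and 6.32 with mock (-1.20 ± 0.11, adjusted p = 2.81e-05). Both were lower in all 4 mice without overlap. The small GTPase gene Rab19 (-1.24 ± 0.10), the receptor gene Gpr146 (-1.33 ± 0.17) and the chaperone gene Hspa1a (-1.36 ± 0.22) were detected on 2 of 4 isoform A arrays, and the proton pump gene Atp6v0a1 (-1.24 ± 0.17) on 1 of 4, so the size of these falls is uncertain. Dimmer probes of Rab19 and Gpr146 gave -0.21 and -0.33.

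Calls among general growth and housekeeping genes stand beside 8.89% of all genes called, 4.49% higher and 4.4% lower, and do not set these genes apart. Of 15 ribosome biogenesis genes Myc alone was called, the median was 0.02, and nucleolin (Ncl, 0.14 ± 0.11) and nucleophosmin (Npm1, -0.02 ± 0.07) were not. Of 20 replication and mitosis genes Cdc20, an activator of the anaphase-promoting complex, was higher (0.67 ± 0.08, adjusted p = 0.000273) and the mitotic kinase gene Plk1 lower (-0.34 ± 0.10, adjusted p = 0.0443, a call lost without the mouse block). Of 18 heat shock and ER chaperone genes, Dnajb9 was higher (0.49 ± 0.10, adjusted p = 0.011) and Hspa1a lower. Of 9 housekeeping genes 0 were called (limma, 1 lower at an unadjusted p under 0.05). The lowest p among these was that of Actb, at 14.07, 14.05, 13.57 and 13.31 with isoform A and 14.09, 13.998, 14.26 and 14.40 with mock (-0.44 ± 0.15, adjusted p = 0.0909). Its other probes gave -0.496 and -0.394, and 2 of the 9 housekeeping differences were above 0.

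A direct test of isoform A against isoform B asked which differences also held beside the other isoform. It called 47 of 8480 genes (0.554%), 35 higher (0.413%) and 12 lower (0.142%), and 1163 genes had an unadjusted p under 0.05. Of the NF-kB lists 6 of 31 members were higher and 0 lower with isoform A than with isoform B (limma, 15 and 0 at an unadjusted p under 0.05): Nfkbie (0.51, adjusted p = 0.00853), Tnip1 (0.43, adjusted p = 0.0129), Icam1 (0.82, adjusted p = 0.0234), Cd83 (0.95, adjusted p = 0.0234), Bcl2l1 (0.64, adjusted p = 0.0238) and Traf1 (0.57, adjusted p = 0.0271). Beside mock, isoform B had 4 of these 31 members higher and 0 lower (limma, 10 and 3 at an unadjusted p under 0.05), against 1.96% of all genes called higher. The comparisons with mock share the mock arrays, and those of isoform A with mock and with isoform B share the isoform A arrays. A call beside both mock and isoform B is therefore not independent support for a gene. The count of 47 was 1 without mouse 2, 1 without mouse 3, 7 without mouse 4 and 12 without the isoform A array of mouse 3.

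Among the 47 called genes, the largest differences from isoform B were those of Ccl9, Il23a, Il4i1, Phldb1 and Cdk5r1, of which Phldb1 has other probes at -0.03 and 0.37 beside mock. Ccl9 averaged 10.59 ± 0.62 with isoform A, 8.49 ± 0.59 with isoform B and 6.999 ± 0.28 with mock (SD, n = 4 each), so isoform A exceeded isoform B by 2.09 ± 0.24 (adjusted p = 0.00237). Il23a averaged 7.94 ± 0.55 with isoform A, 6.11 ± 0.25 with isoform B and 5.85 ± 0.34 with mock (SD, n = 4 each), an excess over isoform B of 1.83 ± 0.18 (adjusted p = 0.000587). Isoform B itself was higher than mock at Ccl9 (1.49 ± 0.24, adjusted p = 0.00259) and was not called at Il23a (0.26 ± 0.18, adjusted p = 0.506). Ccl5 (1.15 ± 0.15, adjusted p = 0.00543), Stat5a (0.93 ± 0.13, adjusted p = 0.00801), Tnfsf4 (0.70 ± 0.13, adjusted p = 0.0331) and Dusp16 (0.54 ± 0.10, adjusted p = 0.0285) were likewise higher with isoform A than with isoform B. Among genes called lower beside both, those farthest below isoform B were Bmi1, a Polycomb gene (-0.79 ± 0.15, adjusted p = 0.0368), Nt5e, the CD73 gene (-0.69 ± 0.10, adjusted p = 0.00801), Card10 (-0.55 ± 0.10, adjusted p = 0.0327), Slc46a3 (-0.44 ± 0.09, adjusted p = 0.0437) and Tgfbr2, a TGF-beta receptor gene (-0.43 ± 0.08, adjusted p = 0.0394). Beside mock, the Tgfbr2 call was lost in 17 of 24 alternatives, and dimmer probes of Nt5e and Tgfbr2 gave -0.11 and -0.08.

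**Figure D5:**
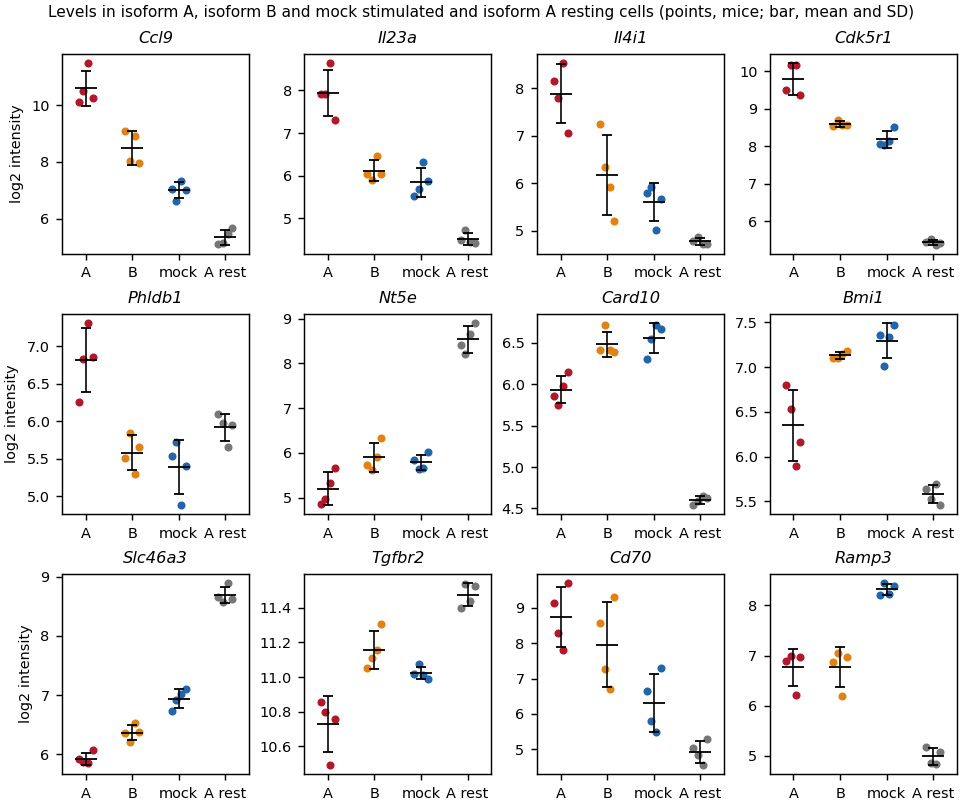
Log2 intensity (y axes, which differ by panel and do not start at 0) of 12 genes in isoform A, isoform B and mock stimulated cells and in resting isoform A cells, with points for mice and bars for mean and SD (n = 4). In Ccl9, Il23a and Cdk5r1 the isoform A points lie above all others, and in Ramp3 isoforms A and B lie together, both below mock.

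At other genes isoform A and isoform B were not told apart. Tnf averaged 14.23 ± 0.24 with isoform A and 13.21 ± 0.13 with mock (SD, n = 4 each), and isoform A differed from isoform B by 0.06 ± 0.12 (adjusted p = 0.87). Cd70 differed from isoform B by 0.77 ± 0.22 (adjusted p = 0.143), Il10 by 0.21 ± 0.26 (adjusted p = 0.776) and Ramp3 by -0.0031 ± 0.13 (adjusted p = 0.994). Of the 27 type I interferon-stimulated genes 0 were called between the isoforms, beside 0.554% of all genes (limma, also 0 at an unadjusted p under 0.05). Isoform B had 5 of them lower and 0 higher than mock, beside 2.04% of all genes called lower. Of the 21 integrated stress response genes 0 differed between the isoforms (4 higher with isoform A and 0 lower at an unadjusted p under 0.05), and isoform B had 8 lower than mock. The same count of 0 was found for 26 glycolysis genes (3 higher and 2 lower at an unadjusted p under 0.05) and for 20 sterol genes (1 and 1), where isoform B had 8 and 5 lower than mock. With 0.554% of all genes called between the isoforms, a count of 0 does not set these lists apart from other genes. The median difference of isoform B minus mock was -0.55, -0.32, -0.13 and -0.25 for the interferon, stress, glycolysis and sterol lists, beside -0.64, -0.27, -0.13 and -0.31 for isoform A minus mock.

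Resting isoform A cells place these levels on the scale of the response to stimulation. Of the 381 genes called higher, the mock mean lay between the resting and the stimulated isoform A means at 240, the resting mean lay between the other means at 56, and the stimulated isoform A mean did so at 85. Of the 373 called lower, these counts were 201, 73 and 99. The call itself fixes the order of the stimulated isoform A and mock means, and the same isoform A arrays enter both comparisons. Shares over all genes were not computed, so these counts are a description only. Cd83 averaged 9.26 ± 0.29 in stimulated isoform A cells and 7.72 ± 0.31 in stimulated mock cells, and 4.73 ± 0.21 in resting isoform A cells (SD, n = 4 each). Tnf was at 14.23 ± 0.24 in stimulated isoform A, 13.21 ± 0.13 in stimulated mock and 8.75 ± 0.21 in resting isoform A cells. Stimulated mock cells stood nearer to stimulated isoform A cells than to resting cells at both genes. Ramp3 was at 6.77 ± 0.37 in stimulated isoform A, 8.32 ± 0.11 in stimulated mock and 4.99 ± 0.17 in resting isoform A cells, so that the higher level was that of mock. Nt5e was at 5.205 ± 0.36 in stimulated isoform A, 5.79 ± 0.17 in stimulated mock and 8.54 ± 0.30 in resting isoform A cells, and it was above background on 2 of 4 stimulated isoform A arrays.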

How the data were processed

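RNA of 16 samples (4 groups of 4, 1 sample of each group from each of 4 mice) was hybridised to Illumina bead arrays. The non-normalized table holds 1 intensity and 1 detection p-value for each of 25697 probes and each array, as the authors deposited them. These were made with GenomeStudio 2011.1, per the submitters' processing notes. The intensity values of the authors' own value table were used only as an alternative, and their normalization is not given in the sources used here.

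Intensities were background-corrected with normexp fitted through the detection p-values (offset 16), quantile-normalized and taken to log2 (limma 3.58.1, statmod 1.5.0, R 4.3.3). Probes with a detection p under 0.05 on at least 4 of 16 arrays were kept (12344). Of all probes, 23978 had 1 gene symbol, 0 several and 1719 none. The brightest kept probe of each gene gave 8480 genes. A linear model with 4 group means and the mouse as a block was fitted to all 16 arrays with limma (9 residual degrees of freedom, empirical Bayes, 2-sided, Benjamini-Hochberg over 8480 genes, threshold 0.05). The labels state that same-numbered samples share a mouse. Deviations from the group means correlated at 0.290 on average within a mouse (0.131 to 0.420, 24 pairs) and at -0.0966 between mice (72 pairs), and the isoform A and mock arrays of mice 1 to 4 at 0.200, 0.257, 0.320 and 0.131. The fit was tested on simulated data.

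Genes named by rule were the 10 highest and 10 lowest called differences with the same sign in all 4 mice, every called NF-kB member, the up to 4 largest called members of each other list (or its lowest p), the 5 lowest p-values, the 5 highest and 5 lowest differences from isoform B among genes called beside both mock and isoform B in 1 direction, Malt1, Nfkbia and Tnfaip3. Further list members are given with their values and were chosen after these were seen. The comparison, the members and the lists were chosen with earlier results of these data known. Alternatives covered the block, the arrays fitted, background correction, scaling, filter, probe choice and leaving out mice or arrays.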

Additional observations from a re-analysis of the deposited data

Results flagged for a closer look

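In 8 of 232 gene and group pairs of the named genes, 1 sample of the 4 lay far from the other 3 by Dixon's test, and chance alone gives about 1 in 20 such pairs. Values are log2 intensities. Ramp3 stood at 6.219 in isoform A cells of mouse 3, with the other 3 isoform A samples between 6.88 and 6.99. Map3k14 stood at 8.174 in mock cells of mouse 4, with the other 3 mock samples between 7.88 and 7.91. Il5 stood at 6.240 in mock cells of mouse 2, with the other 3 mock samples between 4.60 and 4.84. Cd40lg stood at 9.357 in mock cells of mouse 1, with the other 3 mock samples between 8.94 and 9.01. Tsc22d3 stood at 5.621 in isoform A cells of mouse 4, with the other 3 isoform A samples between 6.197 and 6.27. Gbp2 stood at 14.409 in mock cells of mouse 1, with the other 3 mock samples between 14.13 and 14.14. Ddit4 stood at 9.062 in isoform A cells of mouse 1, with the other 3 isoform A samples between 8.66 and 8.70. Cd28 stood at 11.575 in mock cells of mouse 3, with the other 3 mock samples between 11.24 and 11.29.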

How the results depend on the processing

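The 754 calls of isoform A against mock became 416 without the mouse as a replicate block (415 of them among the 754), 275 with the 8 arrays alone and 133 within mice 1 and 2, and ranged from 250 to 812 when a mouse or an array was left out. The other alternatives gave 542 to 992. The NF-kB count of 15 was 4 within mice 1 and 2 and 9 within mice 3 and 4, and 8 to 15 with a mouse or an array left out, with 0 members called lower in each. The 47 calls of isoform A against isoform B became 18 without the replicate block, 15 with the 12 stimulated arrays alone, 107 without background correction, 20 with the authors' table, 90 with an offset of 50, 1 within mice 1 and 2 and 151 within mice 3 and 4, and 1 to 44 with a mouse or an array left out. The difference of Ptprc, isoform A minus mock, turned to 0.18 with the 8 arrays alone and 0.1732 with the most variable probe, and that of Tnfrsf10b, isoform A minus mock, to -0.5466 with the most variable probe, where another probe stands for the gene. Of 111 named genes that were called, 59 passed under all 24 alternatives other than the pairs of mice, and 23 were lost without the block. The causes of the other moves were not tested. Genes near background, such as Malt1, Il1a, Cxcl2 and Mzb1, have the least certain differences.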
